A study of Mus musculus with 20 samples.

Results

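CC chemokine ligands are small secreted proteins that attract leukocytes, and 10 of the 16810 genes of the deposited table were followed here in microglia of the injured spinal cord: *Ccl2*, *Ccl3*, *Ccl4*, *Ccl5*, *Ccl6*, *Ccl7*, *Ccl8*, *Ccl9*, *Ccl12* and *Ccl24*. The members were chosen by symbol, and all 10 were found. *Ccl5*, *Ccl6*, *Ccl8* and *Ccl12* were higher than in non-injured (NI) controls in at least 1 of 6 injured groups, whereas *Ccl2*, *Ccl3*, *Ccl4*, *Ccl7* and *Ccl24* passed the test in none of them, and *Ccl9* rose by less than the 2-fold limit. *Ccl5* rose most, by 17.2-fold at 2 weeks after full transection.

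Microglia of adult CX3CR1+/eGFP mice were sorted as eGFP-high cells from spinal cord around a thoracic lesion, and their polyadenylated RNA was sequenced. The 20 samples formed 7 groups, all of this genotype: NI (n = 3), lateral hemisection (HS) at 72 h (n = 3), 1 week (n = 2) and 2 weeks (n = 3), and full transection (FT) at 72 h, 1 week and 2 weeks (n = 3 each). In these mice eGFP takes the place of 1 copy of *Cx3cr1*, a gene that monocytes also use, and the study used many more mice than libraries, so that a sample may hold cells of several animals. Nothing states which animals gave which sample, and p-values measure the spread between these samples.

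Values are read counts that the authors state were normalised by library size, per mega-read (CPM). A difference is the log2 of CPM plus 0.5 in one group minus that in another. Summed over all genes, the NI columns gave totals between 777426 and 830481. Every injured column had a higher total, the lowest being 878070 (FT, 1 week) and the highest 1.20e+06 (HS, 72 h). Totals above a mega-read mean that division by a column's own reads was not the only scaling. The added step is not given in the sources used here. A gene was called differentially expressed (DE) where it was changed 2-fold or more with a limma adjusted p under 0.05 (Benjamini-Hochberg, 16810 genes). The depth was 3.87 to 34.1 mega-reads per sample. The members had between 6 reads, for *Ccl8* in an FT sample at 72 h, and 39445 reads, for *Ccl4* in an FT sample at 2 weeks. The microglial genes *Cx3cr1* (2018 ± 21.7 CPM in NI, SD, n = 3), *P2ry12* (4223 ± 749 CPM) and *Tmem119* (1239 ± 37.1 CPM) were abundant. The 10 listed monocyte genes summed to 53.4 to 65.3 CPM in NI, 86.3 to 165 CPM at 72 h after HS and 123 to 310 CPM at 72 h after FT. In bulk samples, more cells of a type and more RNA per cell cannot be told apart.

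CC chemokines carry a pair of adjacent cysteines near the start of the mature protein, and they act on G protein-coupled receptors of the Ccr family. *Ccl2*, *Ccl7*, *Ccl8* and *Ccl12* encode monocyte chemoattractants, most of which act on Ccr2. *Ccl3* and *Ccl4* encode macrophage inflammatory proteins and *Ccl5* encodes RANTES. *Ccl6* and *Ccl9* are rodent genes whose products act on Ccr1, and *Ccl24* encodes an eotaxin, a ligand of Ccr3. In the nervous system, microglia and macrophages are among the main sources of these ligands after injury, and their release is known to draw blood monocytes and lymphocytes into tissue.

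The family feature is visible in the transcripts. In each stretch of coding sequence below, 12 bases precede and follow the codons of the cysteine pair, which are in capitals (GENCODE vM21 transcripts on GRCm38, sense strand, 5′ to 3′). They are shown for 9 members because this pair defines the family. The coding sequence of *Ccl24* holds 2 such pairs, of which the second is shown.
Ccl2: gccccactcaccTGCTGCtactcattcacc
Ccl7: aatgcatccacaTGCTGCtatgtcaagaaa
Ccl12: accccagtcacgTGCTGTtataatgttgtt
Ccl8: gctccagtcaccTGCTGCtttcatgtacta
Ccl4: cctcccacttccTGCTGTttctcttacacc
Ccl5: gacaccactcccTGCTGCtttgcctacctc
Ccl6: acttcttcagacTGCTGCttctcttatgcc
Ccl9: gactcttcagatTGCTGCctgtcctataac
Ccl24: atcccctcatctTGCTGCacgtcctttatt
The pair was spelled TGCTGC in 7 of these and TGCTGT in *Ccl4* and *Ccl12*. The most similar coding sequences were those of *Ccl2* and *Ccl7* (72.1% identity), *Ccl3* and *Ccl4* (71.1%) and *Ccl6* and *Ccl9* (70.7%). No pair of members shared a run of 50 bases, and the longest shared run, between *Ccl6* and *Ccl9*, was 25 bases.

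Of the members, 9 lie on chromosome 11 of GRCm38. *Ccl2* (82035571 to 82037453), *Ccl7* (82045712 to 82047525), *Ccl12* (82101845 to 82103400) and *Ccl8* (82115185 to 82116799) follow each other on the plus strand. *Ccl5* (83525778 to 83530518), *Ccl9* (83572919 to 83578636), *Ccl6* (83587882 to 83593087) and *Ccl3* (83647844 to 83649355) lie on the minus strand, and *Ccl4* (83662584 to 83664683) lies beside *Ccl3* on the plus strand. *Ccl24* lies on the minus strand of chromosome 5 (135569937 to 135573049). The strandedness of the libraries is not given in the sources used here.

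Per transcript length, *Ccl4* was the most abundant member in every group, with 1753 ± 578 CPM per kb in NI (SD, n = 3) and 3584 ± 1936 CPM per kb at 2 weeks after HS (SD, n = 3). Next in NI came *Ccl3* (619 ± 166 CPM per kb), *Ccl2* (567 ± 174 CPM per kb), *Ccl12* (335 ± 56.5 CPM per kb) and *Ccl6* (176 ± 25.9 CPM per kb). *Ccl9*, *Ccl7*, *Ccl5*, *Ccl24* and *Ccl8* were scarcer, from 42.9 down to 2.82 CPM per kb (means, n = 3 each). The make-up of the family therefore rested on a few members. *Ccl4* took a mean of 48.7% of the summed CPM per kb in NI and between 43.1% and 52.5% in the injured groups. The share of *Ccl2* was 15.8% in NI, from 14.2% to 17.3% over its 3 samples, and 4.11% at 2 weeks after FT, from 3.25% to 4.56%. The share of *Ccl12* was 9.96% in NI and 17.0% at 2 weeks after FT, with samples from 7.76% to 14.2% and from 14.3% to 21.1%. The share of *Ccl5* was 0.518% in NI and 5.64% at 2 weeks after FT, with samples from 0.457% to 0.554% and from 3.89% to 9.06%. For these 3 members the samples of both groups did not overlap.

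**Figure D1:**
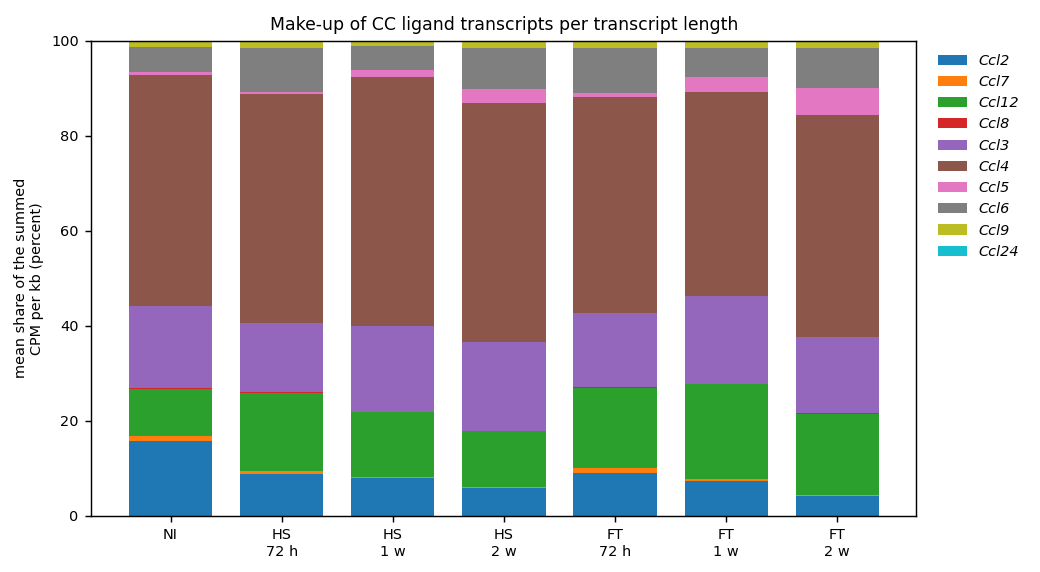
Stacked bars give the mean share of each member, in percent of the summed CPM per kb of transcript, in the 7 groups (NI, HS and FT at 72 h, 1 week and 2 weeks). *Ccl4* fills between 43.1% and 52.5% of every bar, and the segment of *Ccl2* is 15.8% in NI and 4.11% at 2 weeks after FT.

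Against NI, 2 of 10 members were DE in the HS group taken at 72 h, where 13.4% of all genes were. In the HS groups of 1 week and 2 weeks 1 and 2 members were DE, where 2.18% and 3.23% of all genes were. The FT groups had 3, 2 and 4 members DE in the order of time, where 12.2%, 4.05% and 4.88% of all genes were. All of these members were higher than NI. The median log2 difference over the 10 members was 0.56, 0.86 and 0.82 after HS, where that over all genes was -0.11, 0.02 and -0.01. After FT the median over the members was 0.56, 0.68 and 0.84, and that over all genes -0.09, -0.03 and -0.02. These 6 comparisons share the same 3 NI samples.

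**Figure D2:**
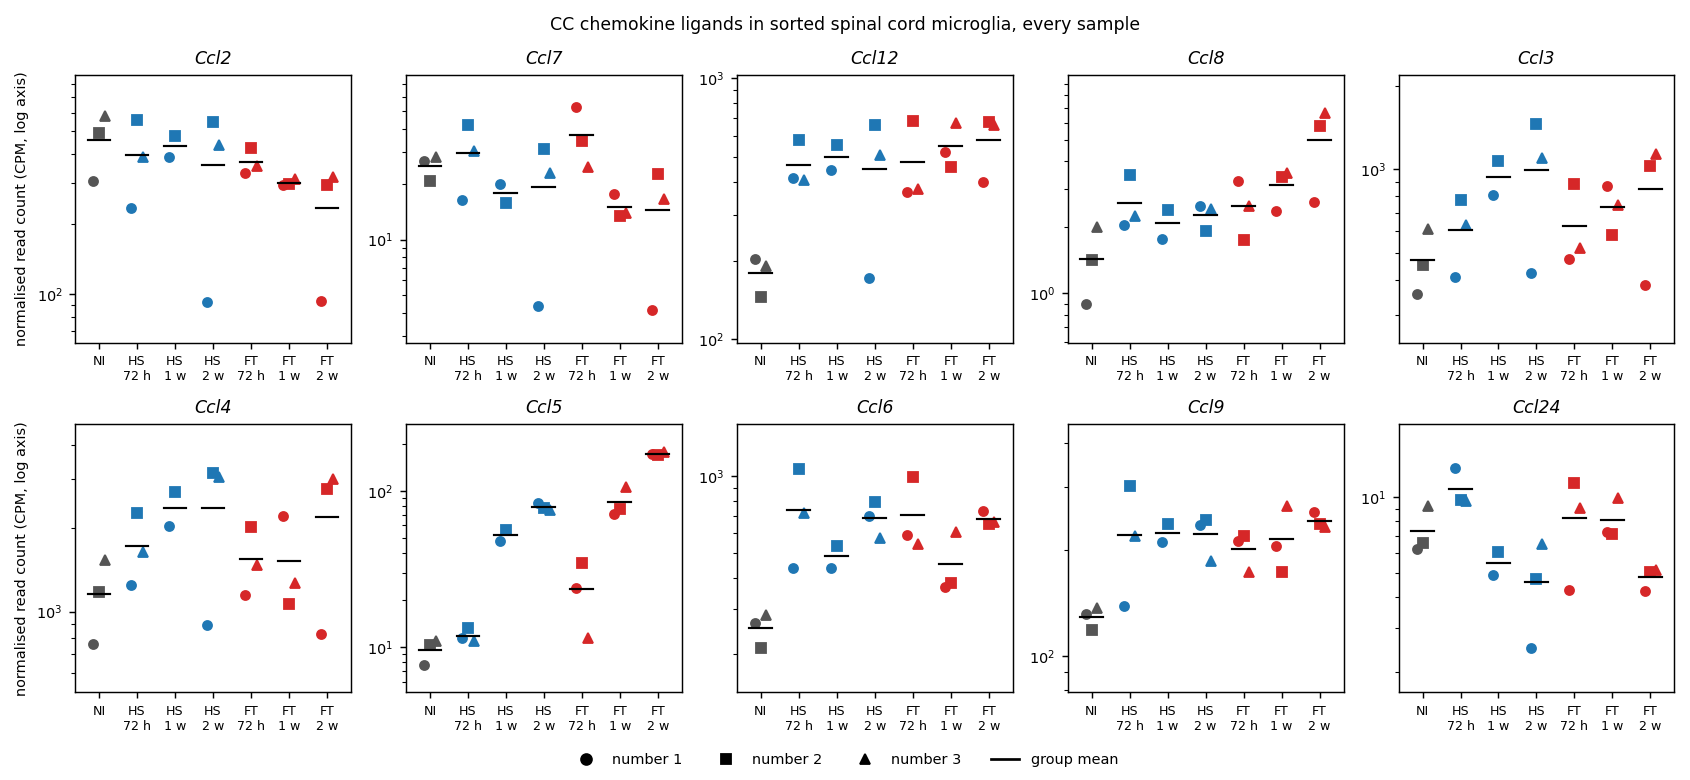
Each panel gives 1 member and each point 1 sample, as CPM on a log axis, with the shape showing the sample number and the bar the group mean. *Ccl5* climbs from 7.69 to 10.9 CPM in NI to 169 to 178 CPM at 2 weeks after FT, and the samples numbered 1 at 2 weeks lie lowest for *Ccl2*, *Ccl3*, *Ccl4*, *Ccl7* and *Ccl12*.

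The group of monocyte chemoattractants moved unevenly. *Ccl12*, a mouse ligand of Ccr2, had 204, 146 and 190.3 CPM in the NI samples. At 72 h it had 414, 577 and 408 CPM after HS and 366.5, 686 and 375 CPM after FT. All 6 of these samples lay above the NI samples. At 1 week it had 442 and 555 CPM after HS and 521, 455 and 673.5 CPM after FT, again all above NI. At 2 weeks it had 172, 662 and 508 CPM after HS and 401, 677 and 659 CPM after FT, and the HS sample numbered 1 was the only injured sample within the NI range. The log2 difference from NI was 1.37 (SE 0.36, limma adjusted p = 0.0071) at 72 h after HS. After FT it was 1.35 (limma adjusted p = 0.0086), 1.60 (limma adjusted p = 0.0066) and 1.66 (limma adjusted p = 0.0040) at 72 h, 1 week and 2 weeks. After HS it missed the test at 1 week (1.47, limma adjusted p = 0.051) and at 2 weeks (1.12, limma adjusted p = 0.082), but passed at both times in edgeR and DESeq2 fits to the recovered reads, with values of 1.47 to 1.48 and 1.31. Without HS 2-week sample 1 the value at that time was 1.70 (limma adjusted p = 0.00099).

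The archetypal monocyte attractant, *Ccl2*, did not rise with *Ccl12*. It had 307, 491 and 585 CPM in NI, and 235, 560 and 389 CPM at 72 h after HS. The HS samples of 1 week had 388 and 479.5 CPM, and those of 2 weeks 93.1, 549.6 and 438 CPM. After FT it had 333, 423 and 355 CPM at 72 h, 294.5, 298 and 313 CPM at 1 week, and 93.8, 296 and 318 CPM at 2 weeks. None of the 17 injured samples lay above the highest NI sample and 6 lay below the lowest. The log2 difference at 2 weeks after FT was -1.11 (95% interval -2.13 to -0.08, limma adjusted p = 0.22), and those of the other 5 groups lay between -0.66 and -0.05. Without FT 2-week sample 1 the value at 2 weeks after FT was -0.54 (limma adjusted p = 0.70), and without HS 2-week sample 1 that at 2 weeks after HS turned to 0.14. With all samples, the FT value passed with every column scaled to 1 total (-1.50, limma adjusted p = 0.043), and with a replicate block in only the samples of both groups (-1.11, limma adjusted p = 0.0045). The ratio of *Ccl12* to *Ccl2* in CPM ran from 0.297 to 0.663 in the NI samples and from 1.03 to 4.28 in the injured samples, without overlap.

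*Ccl7*, another ligand of Ccr2, had 26.8, 20.7 and 28.3 CPM in NI and 52.7, 34.2 and 24.8 CPM at 72 h after FT. It had 13.4 to 17.6 CPM at 1 week after FT, below all NI samples, and had 4.12, 22.8 and 16.6 CPM at 2 weeks after FT. In the HS groups *Ccl7* ran from 4.37 CPM in 2-week sample 1 to 42.2 CPM in 72 h sample 2. Neither FT difference from NI passed the test (-0.73, limma adjusted p = 0.55, and -1.06, limma adjusted p = 0.31), and without FT 2-week sample 1 the latter was -0.35 (limma adjusted p = 0.84). *Ccl8* was the scarcest member, with 0.894, 1.42 and 2.01 CPM in NI and 2.62, 5.83 and 6.64 CPM at 2 weeks after FT. All 3 FT samples at that time lay above NI, and the log2 difference was 1.46 (SE 0.32, limma adjusted p = 0.0042). In the other injured groups *Ccl8* had 1.75 to 3.55 CPM and did not pass, though at 1 week after FT the value without FT 1-week sample 1 was 1.08 (limma adjusted p = 0.046).

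RefSeq promoters, from 250 bases before to 50 after the gene start, were used for *Ccl3*, *Ccl6*, *Ccl8*, *Ccl9* and *Ccl12*, 5 of the 10 members, while those of *Ccl2*, *Ccl4*, *Ccl5*, *Ccl7* and *Ccl24* were not used here. Those of *Ccl12* and *Ccl8* are shown as neighbours that both rose at 2 weeks after FT at very different levels, and that of *Ccl9* as the one with most motifs (GRCm38.p6, in gene orientation). Capitals mark a TATA box (TATAAA, gene strand), PU.1/ETS (GAGGAA), AP-1 (TGANTCA), C/EBP (TTNNGNAA) and NF-kB motifs, the last 4 on either strand.
Ccl12, chr11:82101595-82101894, plus strand: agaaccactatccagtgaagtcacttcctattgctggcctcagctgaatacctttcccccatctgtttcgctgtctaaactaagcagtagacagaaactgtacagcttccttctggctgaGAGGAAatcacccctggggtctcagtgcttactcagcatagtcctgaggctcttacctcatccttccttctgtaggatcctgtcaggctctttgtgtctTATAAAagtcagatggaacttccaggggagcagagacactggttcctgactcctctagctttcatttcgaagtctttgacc
Ccl8, chr11:82114935-82115234, plus strand: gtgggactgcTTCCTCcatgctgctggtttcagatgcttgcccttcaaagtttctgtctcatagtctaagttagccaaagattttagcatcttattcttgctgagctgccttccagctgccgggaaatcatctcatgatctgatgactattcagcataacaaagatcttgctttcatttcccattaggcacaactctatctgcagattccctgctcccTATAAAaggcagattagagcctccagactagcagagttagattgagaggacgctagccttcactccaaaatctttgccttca
Ccl9, chr11:83578587-83578886, minus strand: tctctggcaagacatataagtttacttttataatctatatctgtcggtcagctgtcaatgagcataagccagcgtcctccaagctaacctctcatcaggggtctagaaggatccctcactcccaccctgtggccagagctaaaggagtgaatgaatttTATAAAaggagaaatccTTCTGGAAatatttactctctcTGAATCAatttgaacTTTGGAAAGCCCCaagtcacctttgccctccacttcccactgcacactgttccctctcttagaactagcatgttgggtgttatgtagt
The TATA box stood at -31 to -26 from the gene start in *Ccl12* and at -32 to -27 in *Ccl8*, and 8.32% of 32851 promoters held it anywhere. GAGGAA was found in *Ccl12*, *Ccl8* and *Ccl3*, as in 28.3% of all promoters. The promoter of *Ccl9* held an AP-1 motif (7.81% of all promoters), 2 C/EBP motifs (40.7% held at least 1) and an NF-kB motif (4.51%), which shares bases with the second C/EBP motif. The interferon-stimulated response element, searched on both strands, was in 0 of the 5 promoters and in 3.44% of all. Such matches are descriptions of these windows.

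Of *Ccl3*, *Ccl4* and *Ccl5*, only *Ccl5* was DE against NI by limma over all 20 samples. *Ccl5*, which attracts T cells and monocytes, had 7.69, 10.3 and 10.9 CPM in NI. At 72 h it had 11.5, 13.2 and 10.9 CPM after HS, overlapping NI, and 24.0, 34.8 and 11.5 CPM after FT. At 1 week it had 47.5 and 56.1 CPM after HS and 71.4, 76.1 and 106 CPM after FT. At 2 weeks it had 83.9, 77.8 and 75.1 CPM after HS and 171, 169 and 178 CPM after FT. From 1 week on, every injured sample lay above all NI samples and all samples taken at 72 h.

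The log2 difference of *Ccl5* from NI was 0.29 (SE 0.26, limma adjusted p = 0.42), 2.38 (limma adjusted p = 2.7e-05) and 2.98 (limma adjusted p = 1.2e-07) at 72 h, 1 week and 2 weeks after HS, or 1.23-, 5.19- and 7.91-fold. The first of these turned to -0.19 with every column scaled to 1 total. After FT it was 1.12 (limma adjusted p = 0.0035), 3.06 (limma adjusted p = 9.65e-08) and 4.11 (limma adjusted p = 5.5e-10), or 2.17-, 8.34- and 17.2-fold. The value at 72 h after FT rested on single samples, and was 0.77 without FT 72 h sample 2 and 0.97 without NI sample 1, under the 2-fold limit. In order of level, FT 2 weeks stood above FT 1 week, HS 2 weeks above HS 1 week, and HS 1 week above FT 72 h without overlap. FT 1 week overlapped with HS 2 weeks, FT 72 h with HS 72 h, and HS 72 h with NI.

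T and NK cells also express *Ccl5*. *Cd3e*, a defining marker of T cells, had 0.119 to 0.772 CPM in NI and 0.281 to 2.70 CPM at 2 weeks after FT. The 9 listed T and NK genes other than *Il7r* summed to 8.16 to 10.4 CPM in NI. In the HS groups they summed to 9.64 to 14.35 CPM, 13.6 to 14.3 CPM and 11.5 to 14.7 CPM in order of time, with all samples of the later groups above NI. In the FT groups they summed to 11.6 to 16.1 CPM, all above NI, then 8.20 to 9.64 CPM, within the NI range, and then 8.80 to 20.3 CPM. *Il7r* fell in all 6 comparisons, from 40.2 to 42.5 CPM in NI to between 8.52 and 17.9 CPM. Over the 3 FT samples at 2 weeks, *Nkg7*, a gene of cytotoxic lymphocytes, ran from 0.281 to 5.75 CPM and *Ccl5* from 169 to 178 CPM. *Klrb1c*, from the same list, had 2.26 to 2.60 CPM in those samples, all above the 1.13 to 1.54 CPM of NI. Of the 10 listed genes limma called 2 at 72 h after FT (12.2% of all genes DE) and 1 at 2 weeks (4.88%). At 2 weeks after FT both edgeR tests called 3 and DESeq2 called 2. The part of these cells in the result was not tested.

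*Ccl3*, which encodes macrophage inflammatory protein 1-alpha, had 357, 455 and 609.9 CPM in NI. It had 412, 779 and 631 CPM at 72 h, 807 and 1076 CPM at 1 week, and 426, 1462 and 1097 CPM at 2 weeks after HS. After FT it had 476, 884 and 523 CPM, then 871, 584 and 748 CPM, then 385, 1031 and 1141 CPM. Only at 1 week after HS did all samples lie above NI. The log2 differences from NI ran from 0.34 to 1.01 and none passed (limma adjusted p from 0.26 to 0.56).

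*Ccl4*, its neighbour on the chromosome, encodes the related protein 1-beta. It had 765, 1178 and 1528 CPM in NI and 1250, 2265 and 1635 CPM at 72 h after HS. It reached 2037 and 2691 CPM at 1 week after HS, and had 891, 3160 and 3045 CPM at 2 weeks. After FT it had 1150, 2016 and 1476 CPM, then 2212, 1068 and 1272 CPM, then 828, 2760 and 3012 CPM. The log2 differences from NI ran from 0.38 to 1.07 (limma adjusted p from 0.37 to 0.77). The ratio of *Ccl4* to *Ccl3* in CPM stayed between 1.70 and 3.04 over the 20 samples, while *Ccl4* itself spanned 765 to 3160 CPM.

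Among the 2-week samples, those numbered 1 stood apart for several members. In HS 2-week sample 1, *Ccl2*, *Ccl7*, *Ccl4*, *Ccl12* and *Ccl3* were 5.30, 6.18, 3.48, 3.40 and 3.00 times lower than the mean of the other 2 samples of that group. In FT 2-week sample 1 the same members were 3.27, 4.79, 3.49, 1.67 and 2.82 times lower. *Ccl5*, *Ccl6* and *Ccl9* did not follow, with ratios of 0.900 to 1.01 in either group. *Ccl24* was also lowest in these samples, by 2.25 and 1.21 times. *Ccl8* was lowest in FT 2-week sample 1, by 2.38 times, and highest in HS 2-week sample 1. The 13 listed immediate-early and heat-shock genes, which respond quickly to stimulation or stress of a cell, were in sum also lowest in both of these samples. They summed to 2181 CPM in HS 2-week sample 1 against 10074 and 11261 CPM, and to 1122 CPM in FT 2-week sample 1 against 8745 and 8436 CPM. At 1 week after FT they summed to 5161, 1853 and 1413 CPM in samples 1 to 3. There *Ccl3*, *Ccl4* and *Ccl7* were highest in sample 1, whereas *Ccl2* had 295 to 313 CPM and *Ccl12* was highest in sample 3. The tissue had been digested with enzymes before the sort. The part of these genes in the result was not tested.

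**Figure D3:**
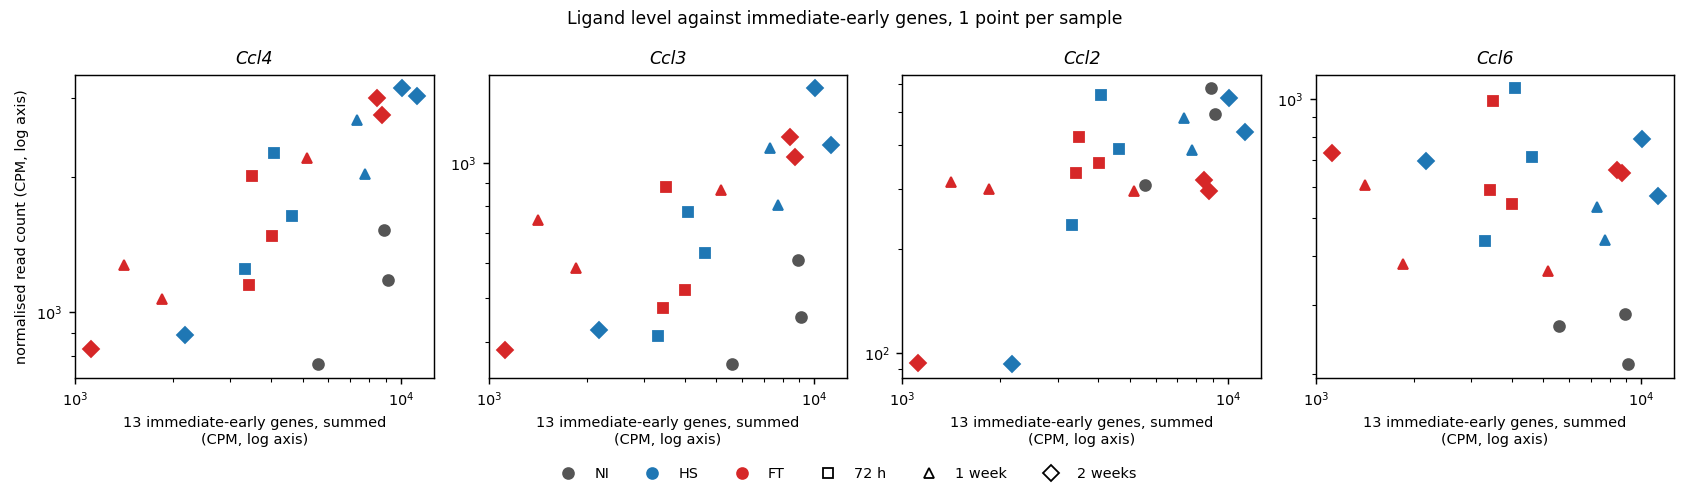
Each point is 1 of the 20 samples, with the summed CPM of the 13 immediate-early and heat-shock genes on the x axis and the CPM of *Ccl4*, *Ccl3*, *Ccl2* or *Ccl6* on the y axis, both log axes, colour giving NI, HS or FT and shape the time. The 2-week samples with 1122 and 2181 CPM on the x axis are low for *Ccl4*, *Ccl3* and *Ccl2* but not for *Ccl6*.

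Without both of these samples, *Ccl3* and *Ccl4* were DE against NI at 2 weeks, a setting chosen after seeing the data. After HS their log2 differences were then 1.45 (limma adjusted p = 0.0077) and 1.48 (limma adjusted p = 0.016), and after FT 1.23 and 1.37 (limma adjusted p = 0.018 for both). *Ccl12* was then DE at 2 weeks after HS too (1.70, limma adjusted p = 0.00047). For *Ccl3*, *Ccl4* and *Ccl12* the samples left out were the lowest of their groups, so that the differences from NI could only grow. With only the HS sample left out, *Ccl3* (1.45, limma adjusted p = 0.043) and *Ccl12* passed at 2 weeks after HS and *Ccl4* did not. With only the FT sample left out, neither *Ccl3* nor *Ccl4* passed at 2 weeks after FT. The NI samples had 5588 to 9114 CPM of the immediate-early genes, so that the 4 remaining 2-week samples, with 8436 to 11261 CPM, stood near the top of that range or above it. At 72 h the sum was 3317 to 4621 CPM after either injury, below every NI sample, and at 1 week after FT it was 1413 to 5161 CPM. *Jun*, a part of AP-1, fell at 72 h by 2.26 on the log2 scale after HS (limma adjusted p = 0.017) and by 2.26 after FT (limma adjusted p = 0.019).

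The rodent pair of Ccr1 ligands lay above NI in every injured sample. *Ccl6* had 265, 212 and 284 CPM in NI. At 72 h it had 436, 1067 and 715 CPM after HS and 588, 990.5 and 541 CPM after FT. At 1 week it had 438 and 533 CPM after HS and 366, 381 and 604 CPM after FT. At 2 weeks it had 695, 794 and 569 CPM after HS and 729, 649 and 663 CPM after FT. All 17 injured samples lay above the 3 NI samples. The log2 difference was 1.46 (SE 0.28, limma adjusted p = 0.00052) at 72 h and 1.43 (limma adjusted p = 0.0026) at 2 weeks after HS, and 1.43 at both times after FT (limma adjusted p = 0.00071 and 0.0017). At 1 week it was 0.94 after HS (limma adjusted p = 0.14) and 0.80 after FT (limma adjusted p = 0.0995) and did not pass.

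*Ccl9*, its neighbour, had 132, 118 and 136 CPM in NI and 138 to 302 CPM in the 17 injured samples, which also all lay above NI. Its log2 differences were smaller, from 0.64 to 0.90, and stayed under the 2-fold limit. They had a limma adjusted p under 0.05 at 72 h (0.70 after HS, adjusted p = 0.023, and 0.64 after FT, adjusted p = 0.040) and at 2 weeks (0.77, adjusted p = 0.045, and 0.90, adjusted p = 0.0105). The ratio of *Ccl6* to *Ccl9* in CPM was 1.79 to 2.08 in NI, 2.78 to 4.53 at 72 h and 2.74 to 3.28 at 2 weeks, and 1.79 to 2.28 at 1 week.

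The changes of *Ccl6* and *Ccl12* at 72 h depended on the scaling in size but not in direction. Scaling every column to 1 total removes the higher totals of the injured samples. The median of all genes was then -0.52 after HS and -0.48 after FT on the log2 scale. With this scaling *Ccl6* had 0.95 and 0.96 and *Ccl12* 0.86 and 0.88. After quantile normalization *Ccl6* had 0.91 and 0.96 and *Ccl12* 0.88 and 0.91. Under both scalings all these values stayed positive but were below the 2-fold limit. *Ccl12* at 72 h after FT was also lost without FT 72 h sample 2 (1.06, limma adjusted p = 0.056). Monocyte genes also rose at 72 h, with 3 of 10 DE after HS and 6 of 10 after FT (13.4% and 12.2% of all genes), and their part in the result was not tested. *Ly6c2*, a marker of inflammatory monocytes, had 0.772 to 1.63 CPM in NI, 0.958 to 2.26 CPM at 72 h after HS and 3.87 to 6.13 CPM after FT.

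*Ccl24*, a ligand that attracts eosinophils, was lower at 2 weeks than at 72 h after HS. It had 6.20, 6.56 and 9.21 CPM in NI and 13.01, 9.71 and 9.64 CPM at 72 h after HS, all above NI. It then had 4.90 and 6.01 CPM at 1 week, all below NI, and 2.49, 4.70 and 6.52 CPM at 2 weeks after HS. After FT it had 4.24, 11.4 and 9.08 CPM, then 7.26, 7.12 and 9.94 CPM, then 4.21, 5.05 and 5.12 CPM. None of the differences from NI passed (-0.69 to 0.54, limma adjusted p from 0.21 to 0.88). Macrophages at the borders of the nervous system can also hold this ligand and *Ccl8*, and 6 of their 9 listed markers were lower than NI at 2 weeks after either injury (3.23% of all genes DE after HS and 4.88% after FT). *Ms4a7*, from the same list, was higher than NI in both, its mean being 47.9 CPM (HS) and 77.6 CPM (FT) against 17.1 CPM. *Folr2* was higher after FT, with 17.0 CPM against 6.47 CPM in NI. Those 9 genes summed to 221 to 238 CPM in NI, 239 to 291 CPM (HS) and 255 to 447 CPM (FT) at 72 h, and 110.1 to 133 CPM (HS) and 134 to 161 CPM (FT) at 2 weeks. *Lyve1*, one of their defining markers, ranged between 11.99 and 13.5 CPM in NI and between 0.725 and 1.91 CPM in the 2-week samples, in which *Ccl8* had 1.92 to 6.64 CPM against 0.894 to 2.01 CPM in NI. The part of these cells in the result was not tested.

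Of 6 astrocyte genes, 3 were DE against NI by limma in every group but HS at 1 week, where 2 were, beside 13.4%, 2.18% and 3.23% of all genes in the HS groups and 12.2%, 4.05% and 4.88% in the FT groups. *Gfap*, the filament protein of astrocytes, had a mean of 45.2 CPM in NI and rose at 72 h to 216 CPM after HS and 321 CPM after FT. *Slc1a2*, their glutamate transporter, fell in all 6 groups, from a mean of 113 CPM in NI to between 11.2 and 42.8 CPM. By limma, 2 of 10 neutrophil genes were DE against NI at 72 h after HS, 1 at 72 h after FT and 0 in the other groups. Of 5 neuronal genes only *Snap25* was DE, lower at 72 h after HS and in all FT groups. Of 5 endothelial genes, *Pecam1* was lower at 1 and 2 weeks after either injury. *Flt1*, from the same list, was higher at 2 weeks after either injury. The part of these cells in the results was not tested. For B cells (4 genes) and oligodendrocytes (6 genes) 0 were DE by limma, edgeR or DESeq2 in any of the 6 comparisons. At most 1 and 3 had an unadjusted p under 0.05, for which the share of all genes was not computed. Of 12 microglial genes, *Tmem119* was lower at 72 h after both injuries, *P2ry12* at 2 weeks after FT, and *Fcrls* was higher at 72 h after both injuries and at 1 week after FT.

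**Figure D4:**
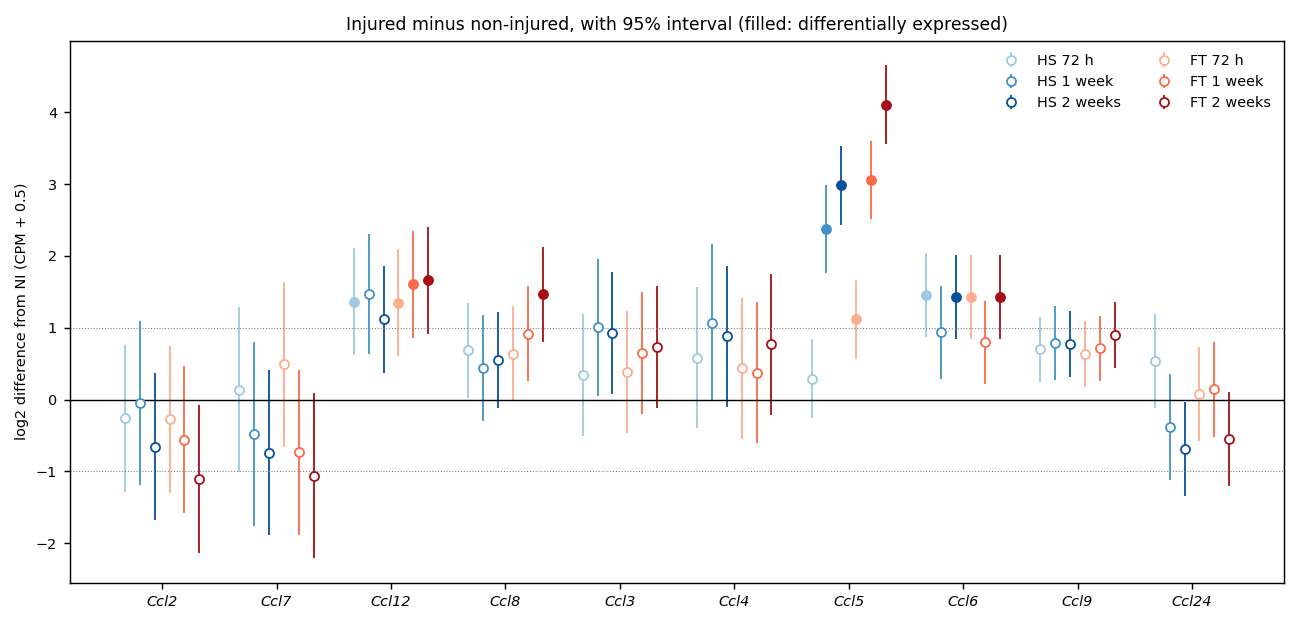
Points give the log2 difference from NI of each member in the 6 injured groups, on CPM plus 0.5, and bars the 95% interval of the limma fit, with filled points DE. *Ccl5* reaches 4.11 at 2 weeks after FT, *Ccl12* lies between 1.12 and 1.66, and the intervals of *Ccl2* and *Ccl7* hold 0 except that of *Ccl2* at 2 weeks after FT, which ends at -0.08.

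Counted as samples beyond the NI range, 5, 8 and 3 members of the HS groups in order of time did not overlap with NI, against 49%, 37.3% and 24.8% of all genes. In the FT groups these were 4, 6 and 6 members, against 44.9%, 21.5% and 30.7% of all genes.

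Between times after the same injury, *Ccl5* was DE. After HS it was higher than at 72 h by 2.08 at 1 week (limma adjusted p = 7.3e-05) and by 2.69 at 2 weeks (limma adjusted p = 4e-07) on the log2 scale. After FT these differences were 1.94 (limma adjusted p = 3.8e-05) and 2.99 (limma adjusted p = 7.2e-08). It was the only member to pass in 3 of the 4 comparisons with 72 h, where 6.03% (HS, 1 week), 3.44% (FT, 1 week) and 3.81% (FT, 2 weeks) of all genes were DE. At 2 weeks after HS, where 4.74% of all genes were DE, *Ccl24* also passed and was 2.34-fold lower than at 72 h (log2 difference -1.23, limma adjusted p = 0.016). That call was lost without HS 72 h sample 1 (-1.09, limma adjusted p = 0.094) or HS 2-week sample 1 (-0.89, limma adjusted p = 0.10). *Ccl7* was lower than at 72 h in all samples at 1 and 2 weeks after FT, by 2.34- and 2.93-fold (limma adjusted p = 0.22 and 0.11). Without FT 2-week sample 1 the latter was 1.80-fold (limma adjusted p = 0.41).

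Between 2 weeks and 1 week limma called 0 members after either injury, as against 0.0119% (HS) and 0.0714% (FT) of all genes. At an unadjusted p under 0.05 there were 0 members after HS (4.69% of all genes) and 3 after FT (*Ccl5*, *Ccl6* and *Ccl24*, with 4.6% of all genes). *Ccl5* was higher in every 2-week FT sample than in any 1-week FT sample, by 1.05 on the log2 scale (95% interval 0.50 to 1.59, limma adjusted p = 0.31). It was called there by the edgeR likelihood ratio test (1.03, adjusted p = 0.034) and by DESeq2 (1.02, adjusted p = 0.049), and not by the edgeR quasi-likelihood test. None of the 3 tests called a member after HS.

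The severity of injury was tested by FT against HS at each time. By limma 0 members were DE at 72 h, 1 week or 2 weeks, as were 0% of all genes, and edgeR (both tests) and DESeq2 also called 0 members. At an unadjusted p under 0.05 there were 1, 1 and 2 members, namely *Ccl5* at each time and *Ccl8* at 2 weeks, with 3%, 4.31% and 2.61% of all genes. *Ccl5* was higher after FT by 0.82 (95% interval 0.28 to 1.37), 0.68 (0.07 to 1.29) and 1.12 (0.58 to 1.67) on the log2 scale, with limma adjusted p = 1 at 72 h and 2 weeks and 0.999 at 1 week. Its FT and HS samples overlapped at 72 h and did not at 1 and 2 weeks. *Ccl8* was higher after FT at 2 weeks by 0.91 (95% interval 0.25 to 1.57, limma adjusted p = 1), also without overlap. Groups without overlap were found for 0, 3 and 2 members, against 7.54%, 15% and 8.15% of all genes. For *Ccl6*, the 95% intervals of FT minus HS ran from -0.61 to 0.55 at 72 h and from -0.58 to 0.58 at 2 weeks.

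Of the Ccr receptors, 8 of the 10 listed were in the table. By limma 2 were higher than NI in the HS group of 72 h, where 13.4% of all genes were DE. In the FT group of that time 2 were higher and 2 were lower, where 12.2% of all genes were DE. In the later groups limma called 0 receptors, where 2.18% and 3.23% (HS) and 4.05% and 4.88% (FT) of all genes were DE. At an unadjusted p under 0.05 there were 1 and 1 (HS) and 4 and 2 (FT). The share of all genes at that threshold was not computed against NI, so these counts cannot be set against it. Another tool made 1 call, the edgeR likelihood ratio test at 2 weeks after FT. *Ccr2*, the receptor of the monocyte chemoattractants, had 14.6 to 20.1 CPM in NI, 34.6 to 100 CPM at 72 h after HS and 57.0 to 166 CPM at 72 h after FT, without overlap. *Ccr1*, the receptor of the *Ccl6* and *Ccl9* products, had 24.1 to 26.0 CPM in NI, and 72.4 to 86.4 CPM at 72 h after HS and 55.1 to 112 CPM after FT (log2 differences 1.62 and 1.48, limma adjusted p = 0.00042 and 0.0011). At 2 weeks *Ccr1* had 14.7 to 19.7 CPM after HS and 16.3 to 24.0 CPM after FT, all below the NI samples, when *Ccl6* remained above NI. *Ccr3*, the eotaxin receptor, fell at 72 h after FT by 1.38 on the log2 scale (limma adjusted p = 0.0061). Of the atypical and CC-like receptors, 4 of 6 were in the table. *Ccr1l1* was lower at 72 h after both injuries (-1.05 and -1.26, limma adjusted p = 0.032 and 0.012), at very low levels. It had 1.06 to 1.67 CPM in NI, 0.377 to 0.410 CPM at 72 h after HS and 0.125 to 0.584 CPM after FT, the lowest being 1 read. *Darc* (now *Ackr1*), a receptor that binds chemokines without signalling, had a mean of 0.442 CPM in NI and 6.38 CPM at 72 h after FT (log2 difference 2.78, limma adjusted p = 0.0013).

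The other listed genes of the pathway had these limma calls against NI in order of time, not all of which are named here. Other CC ligands (6 in the table) had 0, 1 and 1 after HS and 0, 0 and 1 after FT. Signalling genes (18) had 1, 0 and 0 after HS and 1, 1 and 0 after FT. Inducers (17) had 3, 2 and 2 after HS and 2, 2 and 2 after FT. Of all genes, 13.4%, 2.18% and 3.23% were DE after HS and 12.2%, 4.05% and 4.88% after FT. Of the other CC ligands, 6 of 14 were in the table, and *Ccl22*, a ligand of Ccr4, was the only one to pass. It had 0.358 to 0.863 CPM in NI and was higher at 1 week (1.83) and 2 weeks (1.54) in the HS groups and at 2 weeks in the FT group (1.61, limma adjusted p = 0.0033, 0.0034 and 0.0014). Of 18 genes of signalling downstream of the receptors, *Rac2*, a GTPase of leukocyte migration, was higher at 72 h after both injuries and at 1 week after FT. Of 17 genes known to induce chemokines, *Irf7*, of the interferon response, was higher in all 6 injured groups, and *Ifnb1* at 72 h after HS. *Irf7* had 14.6 to 20.8 CPM in NI and 106 to 201 CPM at 2 weeks after FT (log2 difference 2.90, limma adjusted p = 4.15e-07).

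The genes most like each member were taken by Pearson's r of the mean log2 level over the 7 groups, as a description. Both genes of a pair come from the same libraries and depths. For *Ccl12* these were *Isg15* (r = 0.996), *Oas1a* (r = 0.991) and *Trex1* (r = 0.99), of which *Isg15* and *Oas1a* are interferon-induced. For *Ccl5* they were *Tapbp* (r = 0.993), *Nlrc5* (r = 0.989) and *Tcf25* (r = 0.988), of which *Tapbp* and *Nlrc5* belong to MHC class I presentation. For *Ccl6* they were *Mical1* (r = 0.998), *Acot9* (r = 0.992) and *Nes* (r = 0.99), and for *Ccl9* *Samsn1*, *Gas2l3* and *Pip4k2c* (r from 0.987 to 0.99). For *Ccl3* they were *Mmp25*, *Il12rb2* and *Ifnar1* (r from 0.96 to 0.974) and for *Ccl4* *Cd83*, *Spty2d1* and *8430429K09Rik* (r from 0.947 to 0.958). For *Ccl2* they were *Pde8a*, *Atp6v0a2* and *Plcg1* (r from 0.952 to 0.967), for *Ccl7* *9930012K11Rik*, *Igfbp2* and *Kif24* (r from 0.973 to 0.985), for *Ccl8* *Il10rb*, *D17Wsu92e* and *Rab11fip5* (r from 0.96 to 0.976) and for *Ccl24* *Cdk5*, *Slc40a1* and *Inpp5d* (r from 0.966 to 0.976). The group means of these matched genes spanned from 0.17 (*Pde8a*) to 2.75 (*Oas1a*) on the log2 scale. A high r thus does not mean a large change, and *Tcf25* (0.32) and *Cdk5* (0.34) were also nearly flat.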

How the data were processed

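RNA-Seq libraries of sorted microglia (20 samples, 7 groups by their labels) were analysed from 1 deposited table. The authors mapped reads with TopHat2 2.0.9 to mm10, counted them per gene with HTSeq 0.5.4p3, kept genes with enough reads, and normalised by library size with edgeR 3.3.6. The signal that the authors deposited is this normalised count in CPM, and 336200 of 336200 values (100%) were whole reads after division by 1 step per column (tolerance 0.001 step), so that reads were recovered. Strandedness and any sequencing batch are not given in the sources used here. Reads of overlapping antisense genes could thus not be told apart.

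The members, gene lists and tests were chosen with earlier results of these data known. Log2 of CPM plus 0.5 was fitted with limma 3.58.1 (intensity trend, 1 mean per group, all 20 samples), DE as in the report. Alternatives were another added value, a low-value filter, only 2 groups, other scalings, a replicate block, edgeR 4.0.16, DESeq2 1.42.0 and leaving out each sample. A few more were added after seeing the data. Fits were tested on simulated data. Replicates of a group differed by 10.7 to 98.7 times sampling noise (chi-square per degree of freedom, 19 pairs). Of the compared groups with 3 shared numbers, same-numbered samples deviated together for HS and FT at 72 h (r = 0.155, 0.313 and 0.221), where the block changed no call.

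All members are named, and from each list genes DE against NI (at most the 3 largest rises and falls where over 6 were), with the 3 genes most like each member among those with a mean of at least 1 CPM. *Cx3cr1*, *Cd3e* and a few other listed genes were named after their values were seen. Lengths are of RefSeq-matched GENCODE transcripts. Some listed items are not reported here.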

Additional observations from a re-analysis of the deposited data

Results flagged for a closer look

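Differences between times after the same injury passed the test for 2 members. *Ccl5* was higher than at 72 h by 2.08 (1 week, HS), 2.69 (2 weeks, HS), 1.94 (1 week, FT) and 2.99 (2 weeks, FT) on the log2 scale of CPM plus 0.5 (limma, adjusted p from 7.2e-08 to 7.3e-05, all 2-week and 1-week samples above all 72 h samples). *Ccl24* was different at 2 weeks from 72 h after HS, with a log2 difference of -1.23 (limma adjusted p = 0.016), all 3 samples lower. *Ccl24* also lay above all NI samples in every HS sample at 72 h and below them in every HS sample at 1 week. The difference between those times was -0.91 on the log2 scale and did not pass (limma adjusted p = 0.10).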

How the results depend on the processing

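The number of members DE was the same under most alternatives, and none of the 19 differences that were called changed sign. Of the 131 that were not called, 57 changed sign under at least 1 alternative. Against NI at 72 h the number DE was 0 after HS with quantile normalization and 0 with columns scaled to 1 total (2 as reported), and after FT 1 and 0 (3 as reported). At 1 week after HS (1 as reported) it was 4 with only the samples of the 2 groups, and 2 with the replicate block, edgeR quasi-likelihood, edgeR likelihood ratio and DESeq2, the added member being *Ccl12* in each of the last 4. Without HS and FT 2-week samples 1 together it was 5 against NI at 2 weeks after HS (2 as reported) and 2 for FT at 2 weeks against 72 h (1 as reported). It was 1 between FT at 2 weeks and 1 week with the edgeR likelihood ratio test and with DESeq2 (0 as reported), and 2 for FT at 1 week against 72 h with the replicate block in only the samples of the 2 groups (1 as reported), where *Ccl7* was added. Leaving out 1 sample at a time gave 1 to 3 for FT at 72 h against NI (1 without FT 72 h sample 2), 2 to 4 for HS at 2 weeks against NI (4 without HS 2-week sample 1), 1 to 2 for HS at 2 weeks against 72 h (1 without HS 72 h sample 1 or HS 2-week sample 1), 1 to 2 for FT at 2 weeks against 72 h (2 without FT 2-week sample 1, where *Ccl8* was added) and 2 to 3 for FT at 1 week against NI. The pairing by number had r from -0.426 to 0.444 over 57 pairs of samples, and 20 were over 0.1. The cause of these changes was not tested. Depth limited *Ccl8* most, which had 6 to 87 reads per sample.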
